A study of Mus musculus with 23 samples.

Results

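Ribosome biogenesis is the making of ribosomes in the nucleolus, and 36 genes that encode its factors were followed through the series. The members were the rows of the deposited tables whose symbol is one of a fixed list of 36, out of 18412 genes in each table, and all 36 were present. RNA polymerase I transcribes the ribosomal RNA precursor, with Ubtf and Rrn3 as its initiation factors. Small nucleolar ribonucleoproteins (snoRNPs) then guide the chemical marks on that precursor: box C/D particles methylate it and box H/ACA particles convert uridine to pseudouridine. Large protein assemblies cut and fold it into the precursors of the small and the large ribosomal subunit, which are exported to the cytoplasm. Dividing embryonic stem (ES) cells make ribosomes at a high rate, and the genes of this pathway are known as a group whose mRNA often follows cell growth.

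Strand-specific sequencing of polyadenylated RNA was done on mouse ES cells cultured on gelatin in medium with serum and LIF, in 23 samples of 11 groups. Argonaute proteins, of which the mouse has 4, carry microRNAs to their target mRNAs. One set of samples compared AB2.2 wild-type cells (n = 2) with the mutant line B9 (Blm-/-;Ago1,3,4-/-, n = 2). The set also had the line E7 (Blm-/-;Ago1,2,3,4-/-;CreERT2;hAgo2fl, n = 3), whose only Argonaute is a floxed human AGO2 transgene by its label, and the clones C62 and C86 (Blm-/-;Ago1,2,3,4-/-;CreERT2, n = 2), which have none. A time course and a rescue were made with TT-FHAgo2 cells, clonal by the labels, in which the same Blm-/-;Ago1,2,3,4-/-;CreERT2 background carries an Ago2 transgene switched on by doxycycline. For the time course, cells kept at 2.5 µg/mL doxycycline for 48 h, which gives wild-type Ago2 according to the labels, were sampled 0, 24, 48 and 96 h after its removal (n = 2 each). For the rescue, cells propagated at 0.1 µg/mL spent 96 h without the drug and were sampled then, or after a further 48 h at 0.1 or 2.5 µg/mL (n = 2 each). The labels do not say that the libraries of a group came from separate cultures (other than the 2 clones), so p-values measure the spread of these libraries. Doxycycline, the level of Ago2 and hours in culture changed together in the time course and between treated and untreated cells of the rescue, and cannot be told apart there. The 2 rescue doses share their hours, so between them only doxycycline and Ago2 level changed together.

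Each deposited value is the mean over the libraries of a group, and the library values given here were worked out from those means. Libraries are numbered by depth, 1 being the deepest, so the numbers are not the labels' replicate numbers and the clone libraries cannot be named. Exon reads per library ran from 13516827 to 62399060 over the 3 series. Ago1 had reads in both wild-type libraries (3514 and 4693 normalised reads) and none in the other 21. Ago2 reads over the whole gene were 11759 and 12167 at 0 h and 10771 and 10817 at 96 h, lower after removal. In the rescue they were 7260 and 7300 without doxycycline, 7776 and 7672 with 0.1 µg/mL, and 6093 and 5284 with 2.5 µg/mL. They moved with the labelled dose in the time course. Against untreated cells of the rescue they were higher at 0.1 µg/mL but lower at 2.5 µg/mL, so they do not check the induction. Among genotypes Ago2 reads were 5200 and 7254 in wild type and 5199 and 6439 in the clones. They therefore do not check the loss of Ago2 in the clones, which is taken from the labels. All 8 ES cell markers of the list used had means of at least 4468 normalised reads in every group, while the fibroblast feeder genes Col3a1 and Postn had means of 0 or near it. The summed 6 feeder markers were 317 to 336 at 0 h, 644 to 679 at 24 h and 393 to 448 at 96 h. The summed neural markers were 9948 to 10722 at 0 h, 14077 to 14079 at 48 h and 10963 to 11097 at 96 h. In the rescue they were 5392 to 5824 without doxycycline and 5287 to 5479 at 2.5 µg/mL, but single genes moved apart. Between these groups the mean of Nes went from 1612 to 665 and that of Pax6 from 354 to 290. Tubb3 went from 3219 to 3882 and Sox1 from 422 to 546. The feeder sum in the rescue was 146 to 164 without doxycycline, 198 to 216 at 0.1 µg/mL and 236 to 319 at 2.5 µg/mL, where it moved in the same direction as most members. Most of the rise at 2.5 µg/mL was in Thy1, with means of 58.6 without doxycycline and 177 there. Between the same groups Col1a1 went from 40.8 to 36.8 and Pdgfrb from 54.3 to 63.7. The part of both lists in the results was not tested.

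Removal of Ago2 asks what happens to the pathway when the last Argonaute is withdrawn. At 96 h, 31 of the 36 members had fallen in exon reads and Ubtf had risen, while Polr1b, Rrn3, Tsr1 and Rrp1 did not pass the test (adjusted p below 0.05, limma across all genes). The median log2 change of the members was -0.46, against -0.01 over all 13652 genes tested, of which 32.5% fell and 32.4% rose. The decline was already measurable at 24 h, when 23 members had fallen and Npm1 had risen (median -0.20, background 24.1% lower and 26.5% higher). By 48 h the fall took in 33 members (median -0.46, background 31.2% lower). Between 24 and 48 h 29 members fell (18.8% of all genes), and between 48 and 96 h only Ddx21 and Gnl3 fell further while 9 rose (16.3% and 20.1% of all genes). All times share the 0 h libraries, so the counts are not independent of each other. Both 96 h libraries were below both 0 h libraries in 32 members and above them in 2. With 2 libraries per group such separation is common, at 40.9% and 40.3% of all genes. Both libraries were lower in 26 members at 24 h (36.4% of all genes) and in 34 at 48 h (40.6%). Leaving out 1 library at a time gave 30 to 32 members called at 96 h and 20 to 25 at 24 h. The count between 48 and 96 h fell from 11 to 3, 7 and 6 without 48 h library 1, 48 h library 2 and 96 h library 1. The later falls of Ddx21 and Gnl3 were not called without 48 h library 1 (adjusted p = 0.126 and 0.108) or without 96 h library 1 (adjusted p = 0.106 and 0.0748).

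**Figure D1:**
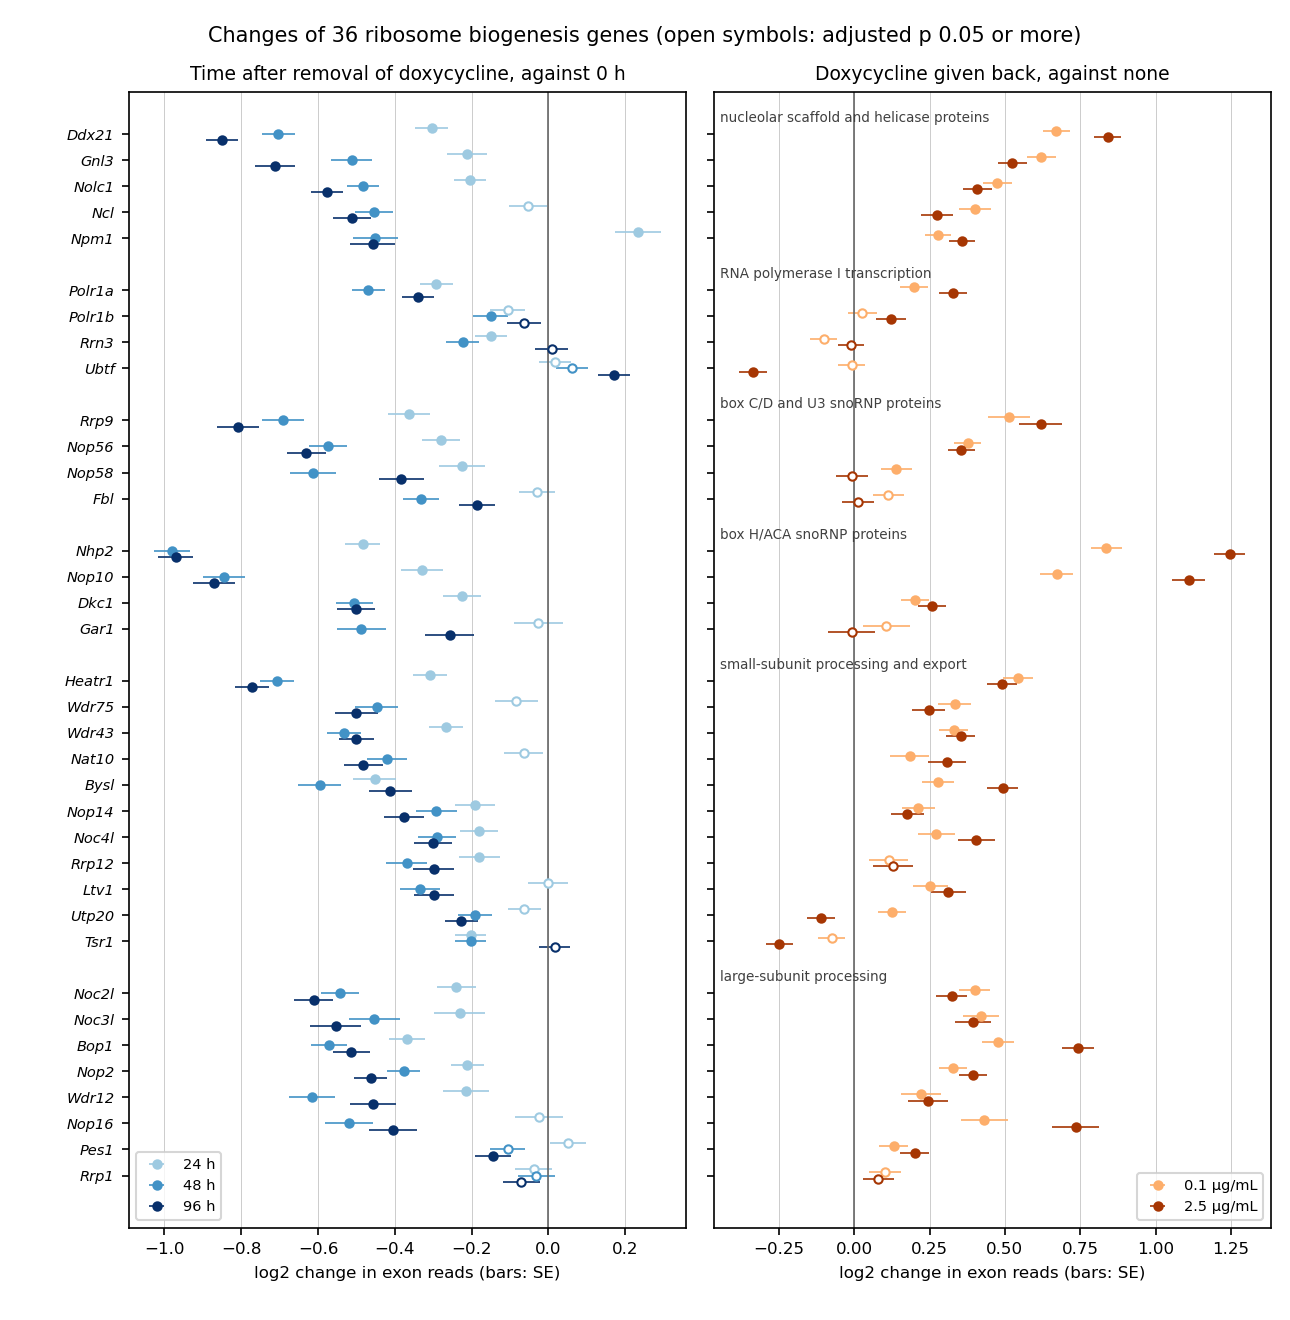
Log2 change in exon reads (horizontal axis, bars are standard errors) of each of 36 genes, by role, at 24, 48 and 96 h after removal of doxycycline (left) and with 0.1 or 2.5 µg/mL given back (right), n = 2 per group. At 96 h 31 genes sit to the left of 0 and passed the test, and the H/ACA proteins Nhp2 and Nop10 are the farthest from 0 at 96 h and at 2.5 µg/mL.

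The box H/ACA snoRNP proteins held the largest falls. The core of this particle is the pseudouridine synthase dyskerin (Dkc1) with Nhp2, Nop10 and Gar1, and the same proteins are part of telomerase. Nhp2 (ENSMUSG00000001056, mm10 chromosome 11, 51619735 to 51623714) had 8603 and 8444 normalised reads at 0 h, 6206 and 5985 after 24 h, 4295 and 4344 after 48 h, and 4399.8 and 4296 after 96 h. Each library after removal was below both 0 h libraries, and the level at 48 and 96 h was the same within the spread of the libraries. This is a 1.96-fold fall at 96 h (log2 -0.97, SE 0.05, adjusted p = 1.07e-14). Nop10 (ENSMUSG00000027133, chromosome 2, 112261926 to 112263269), the smallest protein of the particle, went from 5291 and 5176 at 0 h to 4394 and 3948 after 24 h, 2881 and 2942 after 48 h, and 2861 and 2858 after 96 h (1.83-fold lower; log2 change -0.87, SE 0.05). Dkc1 fell 1.42-fold by 96 h, and Gar1 fell 1.20-fold, from 2244 and 2315 to 2011 and 1807. Gar1 had passed a lower point at 48 h, with 1618 and 1634 normalised reads.

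Among the nucleolar scaffold and helicase proteins all 5 fell by 96 h (median log2 change -0.58). The RNA helicase Ddx21 (ENSMUSG00000020075, chromosome 10, 62580251 to 62602281), which works in both polymerase I transcription and rRNA processing, had 34484 and 34834 normalised reads at 0 h, 28524 and 27618 after 24 h, 21748 and 20842 after 48 h, and 18549 and 19925 after 96 h. Its values stepped down at every time, and the difference at 96 h was 1.80-fold (log2 change -0.85, SE 0.04, adjusted p = 2.53e-14). Gnl3, the nucleolar GTPase nucleostemin, declined from 12296 and 11952 at 0 h through 11009.9 and 9948 after 24 h and 8787 and 8222 after 48 h to 7065 and 7758 after 96 h (log2 change -0.71, SE 0.05). Nolc1, a snoRNP chaperone, fell 1.49-fold and nucleolin (Ncl) 1.43-fold. Nucleophosmin (Npm1), a histone and ribosome chaperone, took a different course: 81410.5 and 69081 at 0 h, 91549.7 and 84879.6 after 24 h, 56598 and 53218 after 48 h, and 57373 and 51970.4 after 96 h. It was thus 1.18-fold higher at 24 h (adjusted p = 0.00211) and 1.37-fold lower at 96 h. The 24 h call did not hold without 0 h library 2 (adjusted p = 0.132) or without 24 h library 1 (adjusted p = 0.0523). Npm1 was also the most abundant member per length, with a mean of 43799 normalised reads per kb at 0 h against a median of 3023 over the 36.

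The 4 genes of RNA polymerase I transcription had the smallest median change of the roles at 96 h (-0.03). Polr1a, the largest subunit of the enzyme, had 10629 and 10666 normalised reads at 0 h, 8637 and 8756 after 24 h, 7730.45 and 7654 after 48 h, and 8601 and 8238 after 96 h. It was the only one of the group that fell at 96 h (1.26-fold; log2 change -0.34, SE 0.04, adjusted p = 2.27e-07). Polr1b, the second largest subunit, had a log2 change of -0.06 and the initiation factor Rrn3 of 0.01, neither past the threshold at 96 h (adjusted p = 0.224 and 0.875). Rrn3 was lower at 48 h and then higher at 96 h than at 48 h (log2 change 0.23, adjusted p = 0.00016). Ubtf, the factor that keeps ribosomal RNA genes open, had 14546 and 15382 at 0 h and 16565 and 17116 after 96 h. It is the single member that rose at 96 h (1.13-fold; log2 change 0.17, SE 0.04, adjusted p = 0.00109), and both 96 h libraries were above both 0 h libraries.

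Of the box C/D and U3 snoRNP proteins all 4 fell by 96 h (median -0.51). Rrp9, a protein of the U3 particle that acts in the first cuts of the precursor, had 4434 and 4409 normalised reads at 0 h, 3534 and 3343 after 24 h, 2733 and 2739 after 48 h, and 2616 and 2437 after 96 h. Its libraries separated completely at each time, with a 1.75-fold fall at 96 h (log2 -0.81, SE 0.05, adjusted p = 6.48e-12). The scaffold Nop56 fell 1.55-fold and its partner Nop58 1.30-fold. The methyltransferase fibrillarin (Fbl) changed by -0.19, with 9814 and 9058 at 0 h and 8536 and 8046 after 96 h (adjusted p = 0.00138, and 0.0519 without 0 h library 1).

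Small-subunit processing and export was the largest group, with 10 of 11 members lower at 96 h (median -0.38). Heatr1, a scaffold of the early small-subunit processome, had 13817 and 13441 normalised reads at 0 h, 11054 and 10949.7 after 24 h, 8298 and 8395 after 48 h, and 8269 and 7695 after 96 h (1.71-fold lower; log2 change -0.77, SE 0.04). Bysl, needed for late maturation of the small subunit, went from 5912 and 6412 at 0 h to 4560.4 and 4442 after 24 h, 3894 and 4261 after 48 h, and 4817 and 4445 after 96 h. Most of its fall was therefore present by 24 h (log2 change -0.45 at 24 h and -0.41 at 96 h). The processome proteins Wdr43 and Wdr75 both changed by -0.50, and the rRNA acetyltransferase Nat10 by -0.48. Tsr1, a GTPase-like factor on late pre-small subunits, was 1.15-fold lower at 24 h, with 11935 and 11978 at 0 h and 10353 and 10430.0 after 24 h. It was back at 12075 and 12124 after 96 h, where it did not differ past the threshold (adjusted p = 0.728).

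Among the 8 genes of large-subunit processing 7 fell (median -0.46). Noc2l, of the NOC complexes on early large-subunit precursors, had 7354 and 7979 normalised reads at 0 h, 6724 and 6262 after 24 h, 5328 and 5185 after 48 h, and 5004 and 5024 after 96 h (1.53-fold lower; log2 change -0.61, SE 0.05). Bop1, which forms the PeBoW complex with Pes1 and Wdr12, had 8935 and 9513 at 0 h, 7175 and 7105 after 24 h, 6084 and 6322 after 48 h, and 6672 and 6256 after 96 h (1.43-fold lower). Wdr12 of that complex changed by -0.46. Pes1 changed by -0.14, a call lost without 0 h library 1 (adjusted p = 0.0675) or 96 h library 2 (adjusted p = 0.0577). Rrp1 libraries overlapped, at 7723 and 7997 at 0 h and 7141 and 7839.9 after 96 h.

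**Figure D2:**
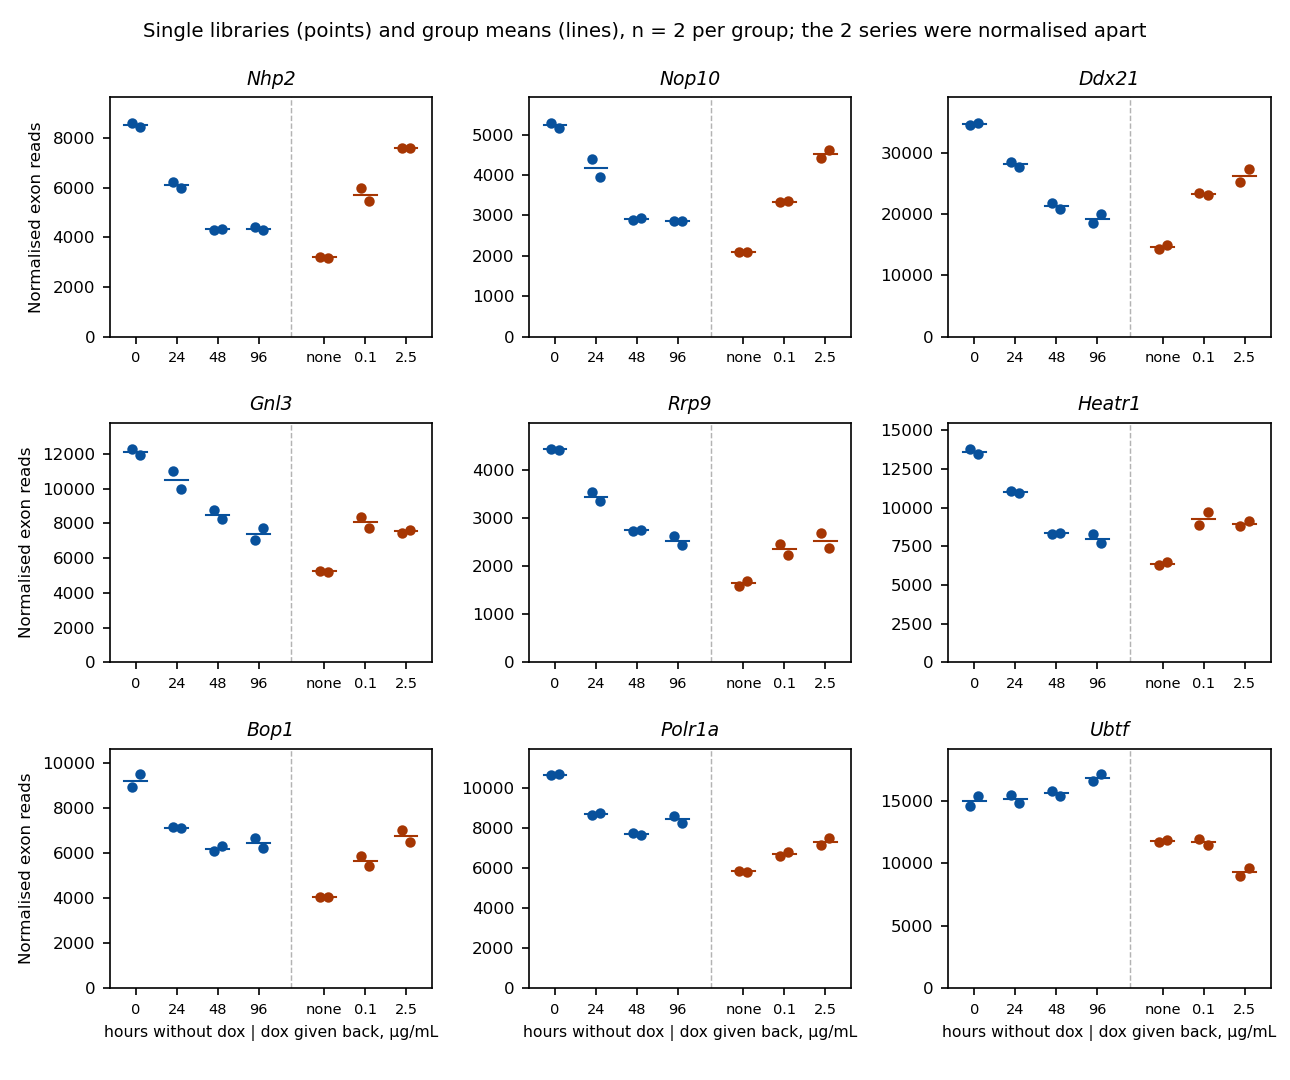
Normalised exon reads (vertical axis, from 0) of 9 genes in each library (points) and the group means (lines), n = 2 per group, in the time course (blue, hours without doxycycline) and the rescue (brown, µg/mL given back). Nhp2 goes from 8603 and 8444 at 0 h to 4399.8 and 4296 at 96 h and from 3218 and 3182 without doxycycline to 7578 and 7607 at 2.5 µg/mL, and Ubtf runs the other way in both series.

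The sequence before the start site was looked at because these genes moved together. RefSeq windows on GRCm38.p6 (the mm10 assembly) from 250 bases before to 50 after the start were at hand for 32 of the 36 members, and 4 motifs were searched on both strands. The E-box CACGTG, bound by Myc and USF proteins, was in windows of 7 members (21.9%) and of 8.09% of 27025 genes. The Ets core CCGGAAG was in 10 members (31.3%) and 9.93% of all genes. The Nrf1 motif GCGCATGCG, held by 1.95% of all genes, was in 1 of the 32 (Ubtf), and the Yy1 motif AAGATGGC, held by 3.19%, had no match there. None of the searched motifs overlapped another in the stretches printed here. These give the 100 bases before the RefSeq start for the 4 H/ACA genes, which include both the largest and 1 of the smallest changes, and for Nop2 and Rrn3, which have both an E-box and an Ets core in their windows. Ltv1 and Tsr1 also have both motifs and are not printed. The stretches are written 5′ to 3′ on the gene's strand, with a motif in capitals.
Nhp2, chr11:51619673-51619772, plus strand: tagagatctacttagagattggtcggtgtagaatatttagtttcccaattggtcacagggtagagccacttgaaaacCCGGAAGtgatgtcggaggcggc
Nop10, chr2:112261826-112261925, plus strand: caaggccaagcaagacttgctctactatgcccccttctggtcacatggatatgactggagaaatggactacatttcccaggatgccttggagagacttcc
Dkc1, chrX:75095754-75095853, plus strand: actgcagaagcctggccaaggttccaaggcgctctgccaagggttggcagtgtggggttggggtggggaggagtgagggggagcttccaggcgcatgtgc
Gar1, chr3:129831397-129831496, minus strand: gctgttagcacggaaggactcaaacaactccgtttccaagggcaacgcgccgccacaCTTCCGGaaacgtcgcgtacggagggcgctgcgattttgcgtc
Nop2, chr6:125131783-125131882, plus strand: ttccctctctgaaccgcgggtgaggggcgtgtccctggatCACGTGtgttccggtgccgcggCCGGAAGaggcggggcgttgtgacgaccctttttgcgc
Rrn3, chr16:13780599-13780698, plus strand: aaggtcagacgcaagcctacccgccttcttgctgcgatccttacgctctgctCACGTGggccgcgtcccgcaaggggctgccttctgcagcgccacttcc
The Ets core began 23 bases before the RefSeq start of Nhp2 and 43 before that of Gar1, where it is on the opposite strand. In GENCODE the Nhp2 gene begins earlier, at 51619735, so the stretch printed runs into it and the Ets core lies inside that gene. Nop10 and Dkc1 had no match to the 4 motifs in their windows, and the Ets core of Rrn3 lies outside the stretch printed. A match is a string of letters and shows no binding.

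Return of doxycycline asks which of these levels come back with Ago2. After 48 h at 0.1 µg/mL 28 of the 36 members had risen against cells left without the drug and 8 did not pass the test (median log2 change 0.27, against -0.01 over all 13176 genes, of which 22.0% rose and 22.1% fell). At 2.5 µg/mL 27 had risen and Ubtf, Tsr1 and Utp20 had fallen (median 0.32, background 31.8% higher and 32.0% lower). Both doses share the untreated libraries. Between the doses 7 members were higher at 2.5 than at 0.1 µg/mL, 4 were lower and 25 did not pass (median 0.02, background 20.0% higher and 21.0% lower). Leaving out 1 library gave 22 to 30 members called at 0.1 µg/mL and 28 to 30 at 2.5 µg/mL. Both 0.1 µg/mL libraries were above both untreated ones in 32 members and below in 2 (35.4% and 36.7% of all genes). Both 2.5 µg/mL libraries were above in 28 and below in 3 (40.6% and 40.5% of all genes).

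Nhp2 and Nop10 again led, and both separated the doses. Nhp2 had 3218 and 3182 normalised reads without doxycycline, 5982 and 5456 with 0.1 µg/mL, and 7578 and 7607 with 2.5 µg/mL. All 4 libraries with the drug were above both without it, with a 2.37-fold rise at the higher dose (log2 change 1.25, SE 0.05, adjusted p = 2.86e-17). Between the doses Nhp2 differed by 0.41 (SE 0.05, adjusted p = 4.25e-07). Nop10 had 2093 and 2096, then 3326 and 3349, then 4423 and 4629, a 2.16-fold rise (1.11, SE 0.06) with 0.44 between the doses (adjusted p = 3.88e-07). Dkc1 rose 1.19-fold at 2.5 µg/mL, while Gar1 had 1401 and 1431 without the drug, 1636 and 1419.9 with 0.1 µg/mL and 1479 and 1341 with 2.5 µg/mL, which overlap.

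All 5 scaffold and helicase genes rose at both doses. Ddx21 had 14357 and 14891 normalised reads without doxycycline, 23405 and 23121 with 0.1 µg/mL and 25142 and 27275 with 2.5 µg/mL (1.79-fold; log2 change 0.84, SE 0.04, adjusted p = 4.56e-15). Gnl3 had 5257 and 5215, then 8386 and 7731, then 7436 and 7634, so its higher dose was not above its lower one. For Ncl the libraries were 79512 and 82725, then 106206 and 107899, then 90605 and 106342 (0.40 and 0.28), and for Npm1 the changes were 0.28 and 0.36. With quantile normalisation of the libraries neither rise held at either dose. At 0.1 µg/mL Ncl was then at 0.09 (adjusted p = 0.114) and Npm1 at 0.03 (adjusted p = 0.608), and at 2.5 µg/mL Ncl turned to -0.11 (adjusted p = 0.0408) and Npm1 was at 0.02 (adjusted p = 0.699).

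The other large rises at 2.5 µg/mL were in subunit processing and the U3 particle. Bop1 had 4066 and 4046 normalised reads without doxycycline, 5861 and 5436 with 0.1 µg/mL and 7053 and 6524 with 2.5 µg/mL (log2 change 0.74, SE 0.05, adjusted p = 1.95e-12). Nop16, a large-subunit factor, went from 1164 and 1395 to 1710.3 and 1727 and then 2233 and 2014 (0.73, SE 0.08). Rrp9 had 1585 and 1694, then 2464 and 2222, then 2676 and 2366 (0.62, SE 0.07). In these 3 genes every library with the drug was above both without it. Heatr1 rose 1.41-fold, from 6277 and 6470.2 to 8786 and 9126 with 2.5 µg/mL, and Polr1a 1.25-fold, from 5843 and 5817 to 7143 and 7489.7.

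A few members fell or did not pass the test. Ubtf had 11676 and 11839.9 normalised reads without doxycycline, 11909 and 11462 with 0.1 µg/mL and 9012 and 9614 with 2.5 µg/mL. It differed at the higher dose only, both from untreated cells (log2 change -0.34, SE 0.05, adjusted p = 3.44e-07) and from the lower dose (-0.33, adjusted p = 1.9e-06). Tsr1 had 9609 and 9392 without the drug and 7803 and 8190.3 with 2.5 µg/mL (-0.25, SE 0.05, adjusted p = 3.32e-05). Utp20, a scaffold of the small-subunit processome, was 1.08-fold lower there, a call lost without either untreated library (adjusted p = 0.283 without library 1 and 0.0585 without library 2), without 2.5 µg/mL library 1 (adjusted p = 0.109), with no filter or with quantile normalisation. Fbl, Nop58 and Rrn3 had log2 changes between -0.01 and 0.01 with 2.5 µg/mL and did not pass.

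The time course and the rescue share no library. Of the 31 members that had fallen at 96 h, 28 rose at 0.1 µg/mL. At 2.5 µg/mL 26 of the 31 rose and Utp20 fell. Across the 36 genes the change at 96 h and the change at 0.1 µg/mL were correlated with Pearson r of -0.93 and Spearman rho of -0.93, and for 2.5 µg/mL the values were -0.84 and -0.81. These correlations are over genes of the same libraries, not over independent samples, and describe only the order of the genes. The same counts and correlations over all genes are not given here. They therefore do not show that such a reversal is particular to the members. Summed over the members, exon reads were 1.17 and 1.13% of all at 0 h and 0.855 and 0.865% at 96 h. They were 0.929 and 0.929% without doxycycline, 1.13 and 1.14% with 0.1 µg/mL and 1.09 and 1.14% with 2.5 µg/mL.

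**Figure D3:**
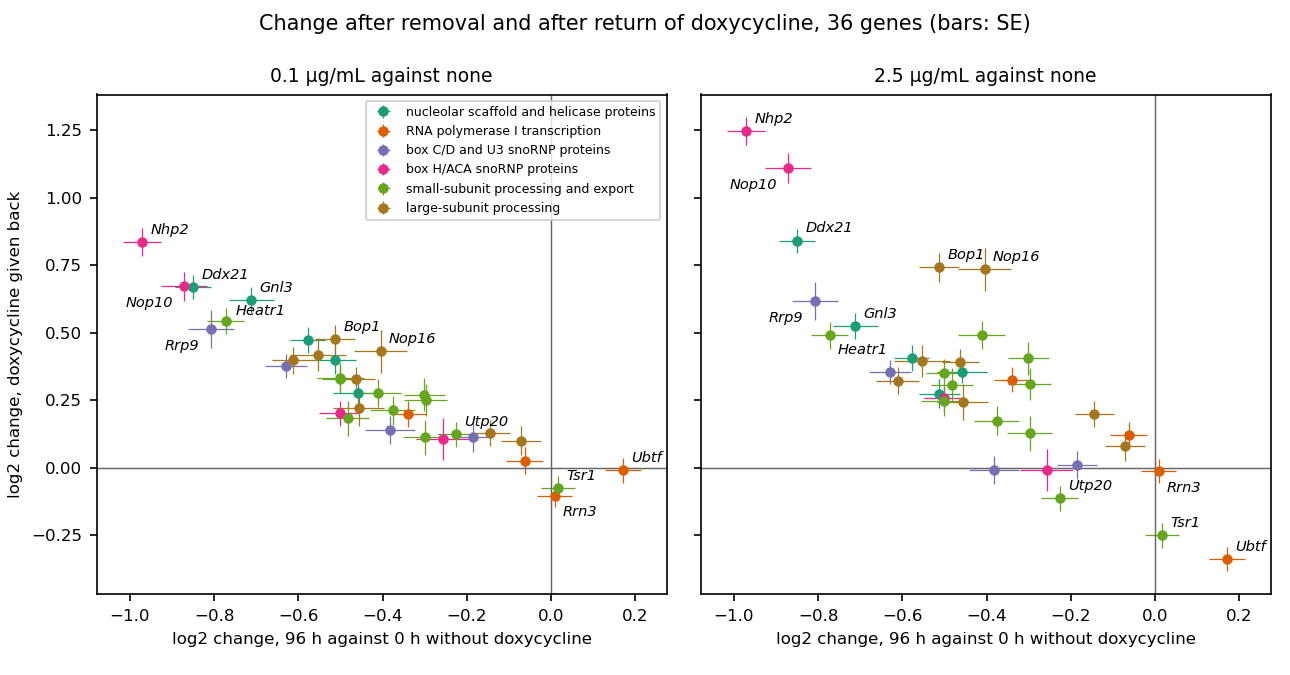
Log2 change of 36 genes at 96 h after removal of doxycycline (horizontal axis) against the change with 0.1 µg/mL (left) or 2.5 µg/mL (right) given back (vertical axis), bars are standard errors, colours are roles. Genes with the largest falls have the largest rises (Pearson r of -0.93 and -0.84 across genes), and Ubtf stands at 0.17 on the horizontal axis and -0.34 on the vertical axis at 2.5 µg/mL.

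Intron reads come from unspliced RNA, and 35 members had enough of them to be tested (Nop10 had too few). At 96 h 27 fell in introns and Ubtf rose (median log2 change -0.47, against 0.00 over 12225 genes, of which 21.8% fell and 22.7% rose). In exons and introns both, 25 members fell. The share of all genes that fell in both is not given here, so this count has no background beside it. At 24 h 18 fell in introns (18.3% of all genes). At 0.1 µg/mL 11 rose (5.33% of all genes), and at 2.5 µg/mL 23 rose and Noc2l fell (median 0.52, background 24.3% higher and 22.1% lower). At 0.1 µg/mL the count was 7 without untreated library 1 and 6 without untreated library 2 or either 0.1 µg/mL library. In either direction 5 members were called between 24 and 48 h (9.19% of all genes), 3 between 48 and 96 h (17.1%) and 14 between the doses (34.3%).

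Npm1 was called in opposite directions in exons and introns at 24 h, but the difference itself did not pass the test (0.55, adjusted p = 0.0530), and its exon call rests on 2 single libraries as given above. Its introns had 9517 and 9169.99 normalised reads at 0 h and 7883 and 7269.7 after 24 h (log2 -0.30, SE 0.05, adjusted p = 2.05e-05), while its exons rose. By 96 h its introns were at 4946 and 5149. Noc2l parted at 2.5 µg/mL: its introns had 861 and 870.4 without doxycycline, 959 and 918 with 0.1 µg/mL and 616 and 554 with 2.5 µg/mL (-0.57, SE 0.09, adjusted p = 1.74e-05), while its exons had 3771 and 3711, then 4956 and 4910.1, then 4640.5 and 4718. In Bysl the intron reads fell more than the exon reads at 24 h, from 119 and 122 to 36.2 and 48.8 (-1.50, SE 0.26). Ncl introns rose from 415 and 449 to 903 and 1024 with 2.5 µg/mL (1.15, SE 0.10), above the exon change of 0.28.

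The difference between exon and intron change was tested on matched libraries. It was called for Bysl at 24 h (1.06, SE 0.18, adjusted p = 0.0383; 4.12% of all genes were called). At 2.5 µg/mL it was called for Noc2l (0.93, adjusted p = 0.0254), Nop58 (-0.65, adjusted p = 0.0339), Ncl (-0.84, adjusted p = 0.0475) and Npm1 (-0.60, adjusted p = 0.0489), against 11.3% of all genes. The matching of exon to intron libraries is weak, since the deposited columns do not pair them, and each of these 5 calls was lost when any single library was left out. At 96 h limma called 0 of 35 members, against 9.08% of all genes called. At an unadjusted p below 0.05 there were 10 members, and the share of all genes at that threshold is not given here.

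**Figure D4:**
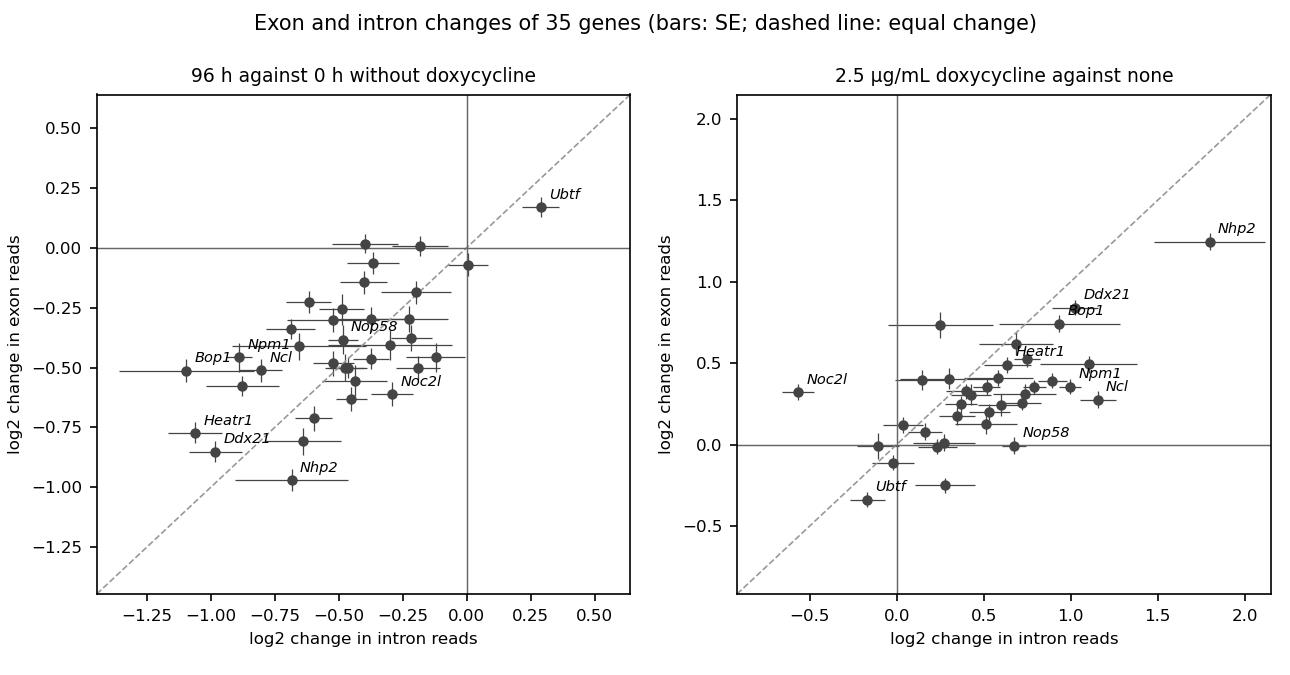
Log2 change in intron reads (horizontal axis) against exon reads (vertical axis) of 35 genes at 96 h after removal (left) and at 2.5 µg/mL (right), with standard errors and a dashed line of equal change. Most genes lie in the quadrant where both fell (left) or both rose (right), and Noc2l lies at -0.57 in introns and 0.32 in exons on the right.

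Annotation bears on how these reads can be read. Introns of 7 members hold 21 snoRNA genes in GENCODE: 5 in Nop56, 4 in Nop58, 3 each in Ncl, Gnl3 and Wdr43, 2 in Tsr1 and 1 in Dkc1. Of the 36 genes 15 overlap a gene on the opposite strand, and whether the authors' counting used strand is not given in the sources used here. Where strand was not used, reads of such a pair cannot be told apart. Nhp2 overlaps Rmnd5b, which changed by 0.03 at 96 h and 0.15 at 2.5 µg/mL, and Bysl overlaps Ccnd3, which changed by -0.03 and 0.31. At 24 h both partners fell with the members they overlap, Rmnd5b by -0.35 (adjusted p = 5.71e-06) and Ccnd3 by -0.33 (adjusted p = 4.43e-06). For Heatr1, Dkc1 and Bop1 the partners Lgals8, Mpp1 and Mroh1 moved the other way at 96 h, by 0.67, 0.96 and 0.30. Parp3, which overlaps Rrp9, fell with it at 96 h (log2 change -0.51, SE 0.21, adjusted p = 0.0344).

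The mutant lines differ from AB2.2 wild type in Blm as well as in the Argonautes, and E7 and the clones also in CreERT2. These cannot be told apart in comparisons with wild type. Among genotypes the clones without any Argonaute had the lowest mean level of the members. Against wild type 7 of 36 had fallen (median log2 change -0.58, against -0.01 over 13243 genes, of which 7.71% fell and 10.8% rose): Nolc1, Nhp2, Ddx21, Gnl3, Nop10, Nop16 and Noc3l. Nolc1 had 13739 and 12584 normalised reads in wild type, 17335 and 11351 in B9, 13685, 10074 and 8206 in E7, and 6168 and 3233 in the clones (clones against wild type 2.94-fold lower; log2 change -1.56, SE 0.35, adjusted p = 0.0126). Nhp2 had 7567 and 5768 in wild type, 6899 and 4301 in B9, 5409, 3999 and 3065 in E7, and 2585 and 2077 in the clones (-1.51, SE 0.32, adjusted p = 0.0101). In both genes the clone libraries were below every other library of the series, and the share of all genes with this order is not given here. Against wild type alone both clone libraries were lower in 19 of the 36 members and in 29.5% of all genes.

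Ddx21 had 24212 and 20129.6 in wild type, 27594 and 16711 in B9, 21001, 16179 and 10507 in E7, and 11116 and 5670.3 in the clones (-1.48, SE 0.40, adjusted p = 0.027), so 1 clone library overlapped E7. Gnl3 had 6597 and 7468, then 8534 and 6855, then 6015, 6352 and 4369, and 3329 and 2895 in the clones (-1.18, SE 0.25). Nop10 had 3914 and 2594, then 3098 and 2642, then 2396, 2293 and 1908, and 1506 and 1317 (-1.18, SE 0.26). Nop16 had 2416 and 1978, then 2393 and 1362, then 1738, 1364 and 1252, and 1151 and 906 (-1.10, SE 0.31). For Polr1b of RNA polymerase I the libraries overlapped, with 5902 and 4127 in wild type and 4740.0 and 9261 in the clones.

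The genotype calls rest on few and uneven libraries. Without wild-type library 1 or 2 only 1 and 2 members were called, without clone library 2 it was 3, and without clone library 1 it was 13. Clone library 2 was below library 1 in 23 of the 36 members (51.2% of all genes), by as much as 1.84 on the log2 scale for Ncl (55771 and 15612), and 1.21 above it for Rrp1. The second wild-type library was below the first in 28 members (50.2% of all genes), with a median log2 difference of -0.30. The second B9 library was below the first in all 36 members and in 50.7% of all genes (median log2 difference -0.56, against -0.01 over all genes). Over the 34 members with a value in every library, the mean log2 level was 12.37 and 12.09 in wild type, 12.48 and 11.94 in B9, 12.26, 11.94 and 11.58 in E7, and 11.72 and 11.65 in the clones. In each genotype the deepest library was the highest, and the lowest E7 library was below both clones. The summed neural markers were 6446 to 12274 in the clones, 4836 to 5189 in wild type, 2772 to 3822 in B9 and 3410 to 7014 in E7. The primitive endoderm sum went the other way, with 299 to 426 in the clones and 738 to 829 in wild type. It was 724 to 827 in B9 and 183 to 263 in E7. The part of depth and of these markers was not tested.

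Against E7, the line with the human transgene, limma called 0 of 34 members in the clones and 0 with voom, where 1.50% of all genes were called. At an unadjusted p below 0.05 there were 8 members, of which 7 were lower, against 20.3% of all genes. The median log2 change of the members was -0.23. The nearest to the threshold was Nolc1 (-1.22, SE 0.32, adjusted p = 0.0842), and without clone library 1 the count was 7. Ncl and Npm1 have only the authors' mean in E7, 80332 and 37924, and were not tested there. B9 against wild type had 0 of 36 called, with 0 at an unadjusted p below 0.05 and 0 with voom (median -0.01, background 0.0680%, or 7.32% at the unadjusted p). E7 against wild type had 0 of 34, with 4 at an unadjusted p below 0.05 and 0 with voom (median -0.33, background 4.58%, or 19.6% at the unadjusted p). The SE of a member's change was typically 0.29 to 0.32 here, against 0.05 in the time course, so these counts do not show that the genotypes are alike.

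**Figure D5:**
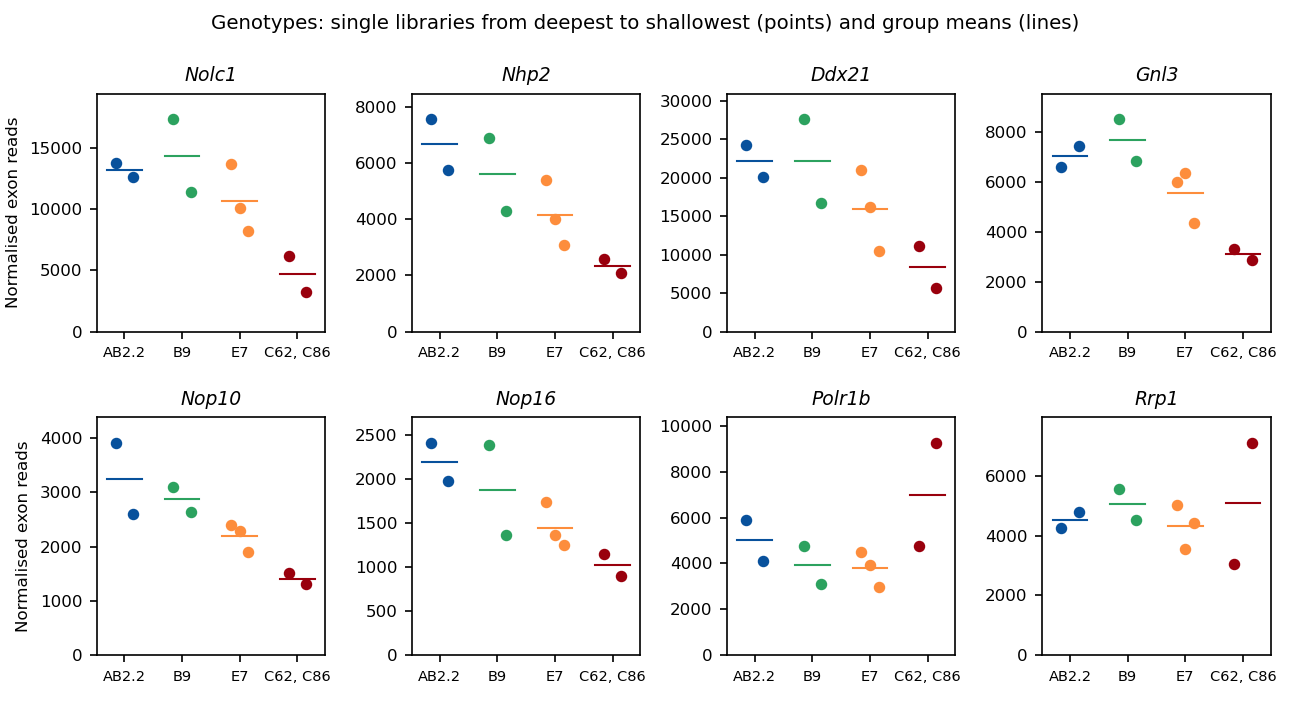
Normalised exon reads (vertical axis, from 0) of 8 genes in AB2.2 wild type, B9, E7 and the clones C62 and C86, with each library as a point (deepest at the left) and the mean as a line, n = 2, 2, 3 and 2. The clone libraries are below all others for Nolc1 and Nhp2, and clone library 2 stands at 9261 for Polr1b, above every other library.

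The rest of the pathway was read from a wider list of 102 measured factors and from 80 ribosomal protein genes. Of the 102, 95 fell and Taf1b rose at 96 h (median log2 change -0.44), 70 fell at 24 h, 80 rose at 0.1 µg/mL and 76 rose at 2.5 µg/mL (median 0.34). Over all genes the shares were 32.5%, 24.1%, 22.0% and 31.8%. The medians of the 36 members at the same 2 points were -0.46 and 0.32. The largest falls were those of Znhit3, a snoRNP assembly factor, from 1576 and 1642 to 729 and 771 (-1.10, SE 0.08), and Nip7, a large-subunit factor, from 8433 and 8059 to 4032 and 3675 (-1.10, SE 0.05). Both rose at 2.5 µg/mL, Znhit3 by 1.26 and Nip7 from 2983 and 3016 to 6011 and 6026. Taf1b, a subunit of the polymerase I selectivity factor, went from 814 and 774 to 884 and 999 after 96 h (0.24, SE 0.10, adjusted p = 0.0395) and changed by -0.29 at 2.5 µg/mL, as Ubtf did in direction.

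Of the ribosomal protein genes 28 of 80 rose and 6 fell at 24 h (median 0.08, against 26.5% and 24.1% of all genes), a time at which 23 of 36 members fell; the 2 lists were not tested against each other. At 96 h 75 of 80 fell (median -0.34, against 32.5% of all genes), with Rplp0 going from 67285 and 70051 to 44582 and 41428 (-0.68, SE 0.04) and Rpl22l1 changing by -0.62. At 2.5 µg/mL 62 rose and 8 fell in exons (median 0.35, against 31.8% and 32.0% of all genes), and 75 rose in introns (median 0.96, against 24.3%). Many ribosomal protein genes, and Npm1, have near-identical processed copies, so their reads are uncertain where counting could split them.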

How the data were processed

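The authors deposited exon and intron tables of each series, and each column is the signal of 1 group: mean reads per gene divided by a size factor per library, not scaled to length. Per the submitters' processing notes, the tools named were TopHat2 2.0.12 and DESeq, and the build mm10. What counted the reads, on which annotation and with which DESeq version is not given in the sources used here. Library values were recovered as the whole read numbers whose scaled sum gives each deposited mean, which solved 405027 of 405064 values (99.991%). In the E7 exon column 36 genes, Ncl and Npm1 among them, were unsolved. A further 65 genes of that column had several solutions, and the one with every library within 2-fold of the mean was kept. That choice limits the spread of those genes in E7. Both the recovery and the tests were tested on simulated data. For the recovery these covered only lower group means, which many members exceed, so they do not check it for the abundant members.

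The design assumed library values in the tables, so the same test was run on recovered ones. Values were raised by 1 and put on the log2 scale. Genes with a mean of at least 10 over a series were fitted with limma 3.58.1 (trended prior, R 4.3.3) in 1 fit per table over its groups. Benjamini-Hochberg adjustment ran over all genes of a comparison, and a call needs an adjusted p below 0.05. Fold changes are on the log2(value + 1) scale. Exon minus intron values were paired by the correlation of library deviations (absolute values 0.03 to 0.15). All 36 members were tested in exons and 35 in introns. Exon reads per library were 32874536 to 62399060 in the time course, 24702128 to 53767538 in the rescue and 13516827 to 53691774 in the genetic series.

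The members, the roles and the wider gene lists were chosen with earlier results of these data known. Values in every library are given for the members with the largest change among those called, up to 6 per main comparison, and for the largest change of each role at 96 h. Npm1, Ubtf, Tsr1, Ncl, Gar1, Fbl, Rrp1, Polr1b and the intron examples were added after their values were seen. Of the wider lists, the 2 largest falls and rises at 96 h are named. Gene positions are from GENCODE on GRCm38. Alternatives were pseudocounts of 0.5 and 8, no filter, scaling to the total, quantile normalisation, limma voom on recovered reads, only the 2 groups compared and leaving out each library.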

Additional observations from a re-analysis of the deposited data

How the results depend on the processing

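No paired analysis was possible because the deposited columns carry no replicate numbers. Of 205 calls of single members followed through the alternatives, 46 were lost under at least 1, and 1 changed sign: the log2 change of Ncl at 2.5 µg/mL, 0.28, was -0.11 after quantile normalisation. At 96 h 30 of 32 calls held in every alternative, at 2.5 µg/mL 25 of 30, at 24 h 17 of 24, at 0.1 µg/mL 20 of 28, and among the clones against wild type 0 of 7. Counts of members called in exons of the time course and the rescue moved by less than 1.5 times under every alternative other than leaving out a library.

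In the clones against E7, quantile normalisation called 1 member and 1 of the 102 other factors. In E7 against wild type, quantile normalisation and the fit of only the 2 groups each called 1 of the other factors. For exon minus intron at 24 h the 1 call became 3 with a pseudocount of 8, 2 with quantile normalisation, and 0 with no filter, the opposite pairing or only the 2 groups. At 96 h the 0 became 1 with a pseudocount of 8 and 2 with quantile normalisation. At 2.5 µg/mL the 4 became 0 with no filter or only the 2 groups, and 2 with the opposite pairing.

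Leaving out each library gave these ranges. Between 48 and 96 h they were 3 to 13 members and 9 to 27 other factors in exons (11 and 23 with all libraries), and 0 to 4 members in introns (3 with all). In introns they were 1 to 7 members between 24 and 48 h (5 with all), 6 to 12 at 0.1 µg/mL (11) and 9 to 13 between the doses (14). For the clones against E7 they were 0 to 7 members and 0 to 27 other factors, and against wild type 1 to 13 and 1 to 42 (7 and 19 with all). For E7 against wild type 0 to 1 other factors were called. Exon minus intron gave 0 to 0 at 24 h and at 2.5 µg/mL. The cause of these shifts was not tested.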
